A study of Mus musculus with 18 samples.

Results

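The libraries described here show the response of wild-type (WT) mouse progenitor cells to 4-hydroxytamoxifen (4OHT), the active metabolite of tamoxifen, when there is no floxed allele for the recombinase to delete. They were chosen by their labels as the 3 WT libraries given 4OHT and the 3 WT libraries given ethanol (EtOH), 6 of the 18 RNA-seq libraries of the series. The comparison was made over all 6 and then over the 4 lettered A and B, because both libraries lettered C lay elsewhere in the data (given before the results). All cells were lineage-negative bone marrow progenitors immortalized by a retrovirus carrying the leukemia fusion gene MLL-AF9 and grown with IL-3, SCF and IL-6. All carried Rosa-CreERT, in which the Rosa locus drives a Cre recombinase that stays inactive until 4OHT is added. The WT genotype is +/+ at Ddx41, which encodes a DEAD-box RNA helicase. For comparison, Het cells carry 1 floxed and 1 normal Ddx41 allele and FF cells carry 2 floxed alleles, with 3 libraries per treatment each. Cells received 1 µM 4OHT, or ethanol as its solvent, for 48 h. There was no group without Cre, so an effect of 4OHT itself and an effect of the activated recombinase cannot be told apart. The labels do not say how many lines stand behind the WT genotype or whether the letters are separate cultures, so the p-values reflect the spread among libraries alone, and that spread may be technical.

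In such cells 4OHT has several targets. It binds the mutated estrogen receptor domain of CreERT and lets the recombinase enter the nucleus, where active Cre can cut DNA also in cells without floxed sites. It also binds endogenous estrogen receptors and enzymes of cholesterol synthesis, and for that reason WT cells given 4OHT are the usual control for a floxed line. Thrombospondin-1 (Thbs1) and transglutaminase 2 (Tgm2) stand at the centre of the results: the former is a secreted matrix glycoprotein that can activate latent TGF-beta, and the latter cross-links proteins and is known in myeloid cells as a retinoid-induced gene.

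The deposited read counts summed to 26557184 to 39459035 per WT library. Levels are given as CPM, counts scaled by TMM factors to a common library size, in which 1 count stood for 0.0259 to 0.0397 CPM. Several genes of the progenitor line list were abundant in all 6 WT libraries. Kit lay at 76.8 to 122, Ptprc at 286 to 413, Hoxa9 at 210 to 442 and Meis1 at 97.8 to 127 CPM. Cd34, a marker of early progenitors, reached at most 4.93 CPM and Flt3 at most 2.35 CPM. Some genes of the granulocyte and monocyte lists lay above Kit in all 6 libraries. Elane was at 3835 to 4863, Ctsg at 1216 to 1864, Ly6c2 at 1519 to 2078 and Itgam at 396 to 499 CPM. Others of these 2 lists were low, with Ltf at 2.18 to 8.37 CPM and Cx3cr1 at no more than 0.591 CPM. Of the markers listed for other lineages, Hba-a1, Cd3e, Cd4, Col1a2 and Tpsab1 had 0 counts in all 6 libraries, which at 3 counts of a total allows up to 0.119 CPM in the shallowest. Other members of those lists were detected, with the transferrin receptor gene Tfrc of the erythroid list at 428 to 778 CPM, Pecam1 of the endothelial list at 63.2 to 216 CPM (highest in the library labelled WT_4OHT C) and Hdc of the mast cell list at 11.4 to 23.6 CPM. Nkg7 of the lymphoid list lay at 7.51 to 9.29 CPM and Mcpt8 of the basophil list at 5.52 to 7.79 CPM. Rn45s, the ribosomal RNA precursor, lay between 2579 and 6594 CPM.

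The WT libraries lettered C, and the library labelled FF_EtOH C, went against their labels. The library labelled WT_4OHT C lay with the FF line: at 295 genes whose mean differed at least 4-fold between FF and WT ethanol libraries lettered A and B, it was nearer to FF at 283 (95.9%), against 23 (7.80%) for the library labelled WT_EtOH C and 21 (7.12%) for the library labelled FF_EtOH C. Whether labels were exchanged among these 3 libraries is not known, and every value over all 6 WT libraries takes the labels as they stand. The Y-linked gene Eif2s3y, of a translation factor, reached 66.4 CPM or more in the other 5 WT libraries but was not counted at all (0 counts) in that labelled WT_4OHT C. Eya1, a transcription cofactor, had 0 counts in those 5 libraries and reached 54.6 CPM in the library labelled WT_4OHT C.

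The library labelled WT_EtOH C lay nearer to the 4OHT libraries at most genes, and nearest to WT_4OHT B. It was nearer to WT_4OHT A and B than to WT_EtOH A and B at 9471 of 13015 genes (72.8%), and at 188 of the 215 genes (87.4%) with an unadjusted p under 0.05 between the A and B libraries. For comparison, these shares were 65.4% and 65.1% for the library labelled WT_4OHT C. They were 43.0% and 28.8% for the library labelled FF_EtOH C. The share over all genes was thus little above that of the library labelled WT_4OHT C. The counts of the library labelled WT_EtOH C were most like those of WT_4OHT B, with a chi-square per gene of 11.2. Towards WT_EtOH A and B the chi-square was 62.4 and 65.9. Towards WT_4OHT A it was 42.8, below both ethanol values but far above 11.2. The correlation of log2 CPM was also highest with WT_4OHT B (0.9939). It was 0.9877 with WT_4OHT A, between WT_EtOH B (0.9885) and WT_EtOH A (0.9852). Among the other 4 libraries, WT_4OHT A was closer to WT_EtOH A (9.87) than to WT_4OHT B (26.4). The chi-squares thus did not split the WT libraries by treatment. No pair of WT libraries was alike within sampling noise, so each was counted once. Because the C libraries were set aside for their expression, the p-values of the comparison of A and B libraries are not independent of that choice.

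Ddx41 was checked first, since it is the gene deleted in the other lines. It stood at 80.1, 81.8 and 89.6 CPM in WT_EtOH A, B and C and at 75.5, 88.5 and 93.0 CPM in WT_4OHT A, B and C. The groups overlapped, with a log2 fold change of 0.03 ± 0.16 (SE) over all 6 libraries and 0.02 ± 0.18 over the letters A and B (edgeR adjusted p = 1 for both). In FF cells given 4OHT the gene lay at 14.6 to 17.7 CPM.

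Over all 6 libraries no gene passed an adjusted p of 0.05 in edgeR's quasi-likelihood test, 0 of 12859 genes tested in either direction (0% called). At an unadjusted p under 0.05 there were 275 genes (2.14%), of which 247 (1.92%) were higher and 28 (0.218%) lower in 4OHT, and DESeq2 called 4. These 4 genes, Eya1, Psma8, Taf9b and Zfp783, were named after their values were seen. Psma8 had 0 counts in the other 5 WT libraries against 18.5 CPM in the library labelled WT_4OHT C, and Taf9b likewise had 0 counts against 8.42 CPM. Zfp783 lay at no more than 0.149 CPM in the other 5 and at 42.0 CPM in that library. All 4 calls therefore rested on this library alone.

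Between the 4OHT and ethanol libraries lettered A and B, 4 genes fell and 0 rose among 13015 tested (0.0307% called lower, 0% higher, edgeR adjusted p of at most 0.05). The genes were Thbs1, Tgm2, Tgfbr3 and Myl10, and each fell by more than 5-fold. At an unadjusted p under 0.05 there were 215 genes (1.65%), 118 higher (0.907%) and 97 lower (0.745%). DESeq2 called 16 genes on the same libraries, 3 of them higher. The other groups of the edgeR fit supplied part of its estimate of the spread, and the count of 215 depended on them. In a fit to the compared groups alone 1374 of 11898 genes had an unadjusted p under 0.05. With the letter as a replicate block there were 625, and without Het_4OHT A, chosen after seeing the data, 562. With limma voom there were 211.

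Thbs1 lies on chromosome 2 (GRCm38, 118111876 to 118127133, plus strand, protein coding). It stood at 1119.7 and 1139.8 CPM in WT_EtOH A and B against 25.9 and 23.2 CPM in WT_4OHT A and B. The library labelled WT_EtOH C held 24.6 CPM and the library labelled WT_4OHT C held 1347 CPM. The A and B groups were far apart, and each C library stood with the opposite treatment. The mean fell from 1129.7 ± 14.2 to 24.5 ± 1.93 CPM (SD, n = 2), a 46.1-fold difference (log2 -5.52 ± 0.53 SE, edgeR adjusted p = 0.0014). With all 6 libraries the log2 value was -0.71 ± 1.22 (adjusted p = 1).

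Tgm2 also lies on chromosome 2 (158116402 to 158146436, minus strand, protein coding). Its level was 219.7 and 227 CPM in WT_EtOH A and B against 18 and 17.3 CPM in WT_4OHT A and B. The library labelled WT_EtOH C held 25.4 CPM and that labelled WT_4OHT C held 479.9 CPM. Again the A and B groups did not overlap, and the C libraries stood with the opposite treatment. The mean fell from 224 ± 5.44 to 17.6 ± 0.511 CPM (SD, n = 2), a 12.7-fold difference (log2 -3.66 ± 0.53 SE, edgeR adjusted p = 0.036). Over all 6 libraries the value was 0.13 ± 0.98.

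Tgfbr3 encodes betaglycan, a co-receptor that presents TGF-beta ligands to the signalling receptors, and lies on chromosome 5 (107106570 to 107289629, minus strand, protein coding). It was at 33.4 and 39.8 CPM in WT_EtOH A and B against 6.95 and 6.70 CPM in WT_4OHT A and B. The library labelled WT_EtOH C held 9.25 CPM and that labelled WT_4OHT C held 99.4 CPM, so that the former lay near the 4OHT libraries and the latter above every other WT library. The mean of the A and B libraries fell 5.36-fold, from 36.6 ± 4.55 to 6.82 ± 0.175 CPM (SD, n = 2; log2 -2.42 ± 0.25 SE, edgeR adjusted p = 0.0014). Over all 6 libraries the value was 0.46 ± 0.76.

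Myl10 encodes a regulatory light chain of myosin and lies on chromosome 5 (136693146 to 136701094, plus strand, protein coding). Its level was 21.6 and 22.3 CPM in WT_EtOH A and B against 2.54 and 3.05 CPM in WT_4OHT A and B. The library labelled WT_EtOH C held 4.26 CPM and that labelled WT_4OHT C held 124 CPM, in the same arrangement as for the other 3 genes. The mean fell 7.85-fold, from 22.0 ± 0.475 to 2.80 ± 0.363 CPM (SD, n = 2; log2 -2.96 ± 0.38 SE, edgeR adjusted p = 0.0149). Over all 6 libraries the value was 1.43 ± 1.03.

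**Figure D1:**
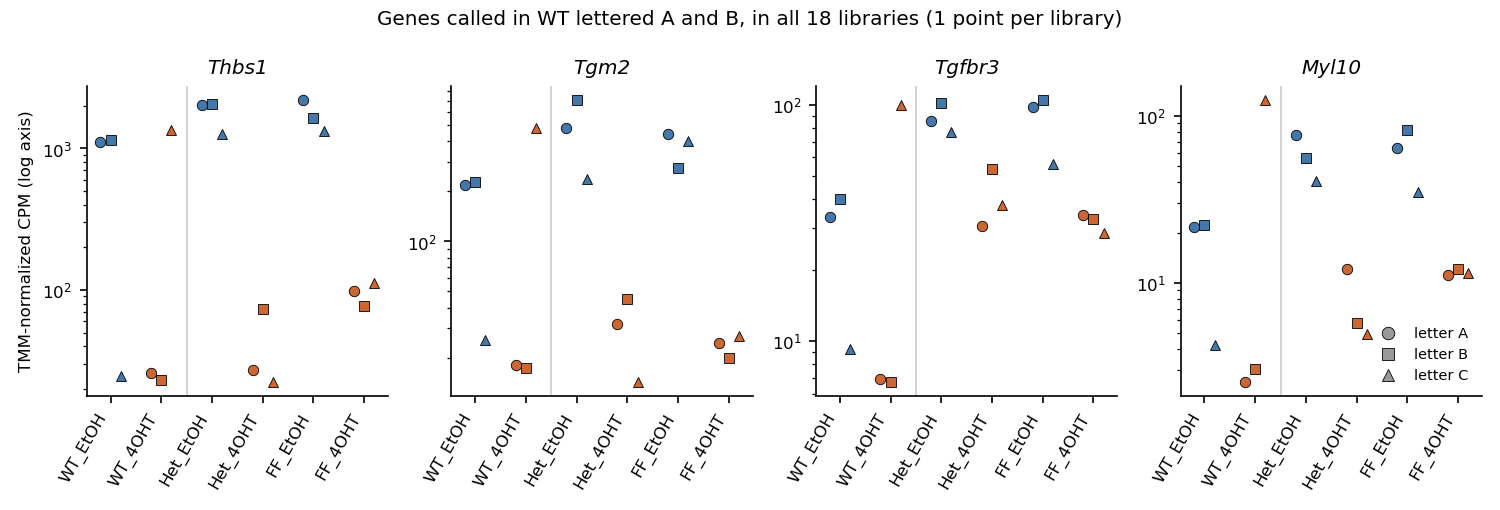
Levels of Thbs1, Tgm2, Tgfbr3 and Myl10 in all 18 libraries, as TMM-normalized CPM on a log axis, with 1 point per library, marker shape for the letter and colour for the treatment (blue EtOH, orange 4OHT). In the WT columns the A and B libraries part by treatment, the library labelled WT_EtOH C lies low and the library labelled WT_4OHT C lies high; in Het and FF all 3 letters part by treatment.

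**Figure D2:**
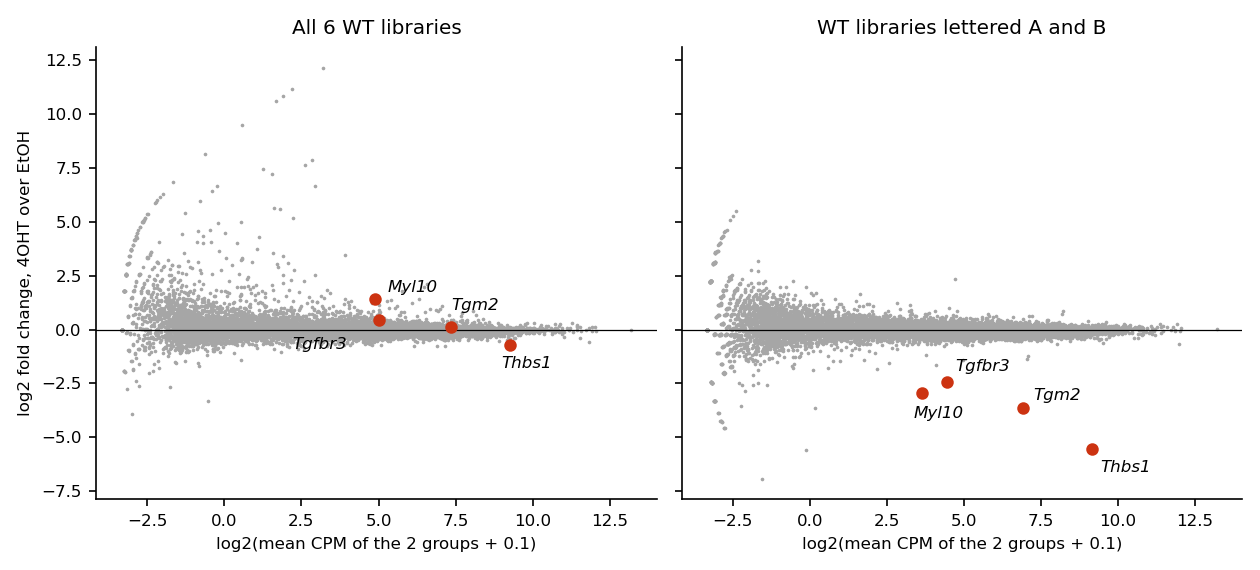
Log2 fold change of 4OHT over EtOH against the log2 of the mean CPM of both groups plus 0.1, with 1 point per tested gene, for all 6 WT libraries (left) and for the letters A and B (right). Thbs1, Tgm2, Tgfbr3 and Myl10 stand apart below 0 on the right, at -5.52, -3.66, -2.42 and -2.96, and lie between -0.71 and 1.43 on the left.

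These calls depended on single libraries. Without WT_4OHT A or without WT_4OHT B no gene passed, with an adjusted p of 0.0652 and 0.0895 for Thbs1 and the same values for Tgfbr3. Without WT_EtOH A or B, Thbs1 and Tgfbr3 passed, while Tgm2 (0.159 and 0.152) and Myl10 (0.0890 and 0.0888) did not. The log2 values themselves stayed between -5.61 and -5.44 for Thbs1 and between -3.69 and -3.62 for Tgm2.

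The same 4 genes were then read in the lines with a floxed allele, whose libraries are not among those compared in WT. The p-values of all 3 lines came from the same fit to 15 libraries. They share its estimate of the spread, so the tests are not independent of each other. In Het cells Thbs1 was at 2015, 2069.7 and 1273 CPM in ethanol and at 27.1, 73.4 and 22.3 CPM in 4OHT (log2 -5.46 ± 0.43, edgeR adjusted p = 0.000156). Tgm2 in Het went from 478, 709 and 237 CPM to 31.8, 45.1 and 14.2 CPM (log2 -3.99 ± 0.44, edgeR adjusted p = 0.00173). Neither gene overlapped between Het treatments. Myl10 and Tgfbr3 were also called lower in Het, at -2.96 ± 0.30 (edgeR adjusted p = 0.00151) and -1.13 ± 0.19 (edgeR adjusted p = 0.0453). In FF cells, with the library labelled FF_EtOH C left out because it lay with the WT line, all 4 were called lower as well. The FF log2 values were -4.32 ± 0.43 for Thbs1, -3.90 ± 0.46 for Tgm2, -1.67 ± 0.21 for Tgfbr3 and -2.66 ± 0.31 for Myl10. For scale, 0.0922% of tested genes were called lower in Het and 7.93% in FF. Same-letter deviations correlated in Het (0.40 to 0.70), so the letter was also used as a replicate block. With it 45 genes were called in Het in place of 12, of which 37 were lower, 8 were higher and 11 were shared. Thbs1, Tgm2, Tgfbr3 and Myl10 were among the 45.

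The differences between responses were tested as interactions. Between Het and WT no gene passed, 0 of 13015 (0% called; 105 genes, 0.807%, at an unadjusted p under 0.05, and 0 in DESeq2). The Het minus WT difference was 0.06 ± 0.57 log2 units for Thbs1, -0.33 ± 0.62 for Tgm2 and 0.00 for Myl10 (edgeR adjusted p = 1.00 for each). No standard error is given for Myl10, since the F statistic of a difference this close to 0 does not give a usable one. For Tgfbr3 it was 1.29 ± 0.30, the smaller fall being in Het (edgeR adjusted p = 1.00). Between FF and WT, 72 genes passed, 9 with a higher difference (0.0692%) and 63 with a lower one (0.484%), and none of the 4 genes was among them. The FF minus WT difference was 1.20 ± 0.60 for Thbs1 (edgeR adjusted p = 0.431) and -0.24 ± 0.65 for Tgm2 (0.916).

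Het cells had 12 genes called lower and 0 higher without the block. Of these, 4 are the WT calls themselves, and the others were Mreg, Tex2, Nlrp3, Bpifc, Samd5, Gbp11, Tgfb2 and Gm7694. None of these 8 passed in WT in the edgeR fit to 15 libraries, while DESeq2 called Mreg, Tex2, Nlrp3 and Bpifc there. Samd5, Gbp11 and Tgfb2 held few WT counts, so their WT values are given as a description.

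Mreg encodes melanoregulin, which acts in the transport of lysosome-related organelles. Its level was 41.5 and 49.3 CPM in WT_EtOH A and B against 16.8 and 17.4 CPM in WT_4OHT A and B (log2 -1.40 ± 0.25, edgeR adjusted p = 0.186). Tex2, a lipid-transfer protein of the endoplasmic reticulum, was at 184 and 198 CPM in ethanol and 80.8 and 81.0 CPM in 4OHT (log2 -1.24 ± 0.24, edgeR adjusted p = 0.305). In Het the log2 value of Tex2 was -1.19 ± 0.20, beside that of WT. For Mreg it was -1.94 ± 0.21, a larger fall than in WT, with a Het minus WT difference of -0.54 ± 0.32 that did not pass. Nlrp3, the sensor of an inflammasome, was at 30.2 and 21.8 CPM in ethanol and 10.0 and 6.55 CPM in 4OHT (log2 -1.65 ± 0.41, edgeR adjusted p = 0.967). Its Het value was -3.04 ± 0.35, and its lowest WT level, 2.90 CPM, was in the library labelled WT_EtOH C.

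The remaining 5 were low in WT or moved little. Bpifc, of the family of lipid-binding BPI-fold proteins, was at 1.43 and 2.38 CPM in WT_EtOH A and B against 0.112 and 0.181 CPM in WT_4OHT A and B. Tgfb2, a TGF-beta ligand, reached at most 0.310 CPM in the WT libraries lettered A and B, against 7.08 to 22.7 CPM in Het ethanol libraries. Samd5 had 8 and 19 counts in WT_EtOH A and B against 0 counts in WT_4OHT A and B, which allow up to 3 counts each. Gbp11 had at most 0.0795 CPM in any WT library. Gm7694 was at 15.1 and 16.8 CPM in ethanol and at 11.4 and 14.9 CPM in 4OHT.

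Other genes followed in the order of p, and those given here were named after their values were seen. Fgd4, an exchange factor for the small GTPase Cdc42, was at 189 and 189.8 CPM in WT_EtOH A and B against 81.0 and 66.8 CPM in WT_4OHT A and B (log2 -1.35 ± 0.28, edgeR adjusted p = 0.522). Peli2, a ubiquitin ligase of Toll-like receptor signalling, was at 19.7 and 18.3 CPM against 8.82 and 7.94 CPM (log2 -1.17 ± 0.29). Arntl, the clock transcription factor also called BMAL1, was at 20.8 and 23.2 CPM against 14.9 and 14 CPM (log2 -0.60 ± 0.14). At all 3 genes the A and B groups did not overlap and the library labelled WT_EtOH C, at 70.1, 8.51 and 15.1 CPM, lay with the 4OHT libraries. The library labelled WT_4OHT C, at 116, 14.3 and 20.1 CPM, was nearer to ethanol for Peli2 and Arntl. Over all 6 libraries the log2 values were -0.76 ± 0.32 for Fgd4, -0.58 ± 0.32 for Peli2 and -0.27 ± 0.16 for Arntl. DESeq2 called Fgd4 and Arntl in WT, and the adjusted p of edgeR was 0.929 for Peli2 and 0.671 for Arntl.

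Among the higher genes, Phlda3, a p53 target that restrains Akt, had the smallest p. It was at 4.09 and 4.21 CPM in WT_EtOH A and B against 9.38 and 10.4 CPM in WT_4OHT A and B (log2 1.26 ± 0.27, edgeR adjusted p = 0.527). Psrc1, a p53-regulated spindle protein, was at 10.7 CPM in both ethanol libraries and at 18.3 and 18.1 CPM in 4OHT (log2 0.77 ± 0.18). Slc2a6, of the glucose transporter family, was at 8.86 and 7.83 CPM against 12.7 and 13.1 CPM (log2 0.63 ± 0.15, edgeR adjusted p = 0.671 for both). The library labelled WT_EtOH C, at 9.28 CPM for Phlda3, 19.4 CPM for Psrc1 and 11.9 CPM for Slc2a6, again lay beside the 4OHT libraries. The library labelled WT_4OHT C held 6.73 CPM of Phlda3, 13.7 CPM of Psrc1 and 26.4 CPM of Slc2a6, and the log2 values over all 6 libraries were 0.59 ± 0.33, 0.29 ± 0.22 and 0.87 ± 0.32. DESeq2 called these 3 genes, and no others, as higher. In FF the log2 value of Phlda3 was 2.41 ± 0.26, and the FF minus WT difference of 1.15 ± 0.36 did not pass (edgeR adjusted p = 0.175).

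**Figure D3:**
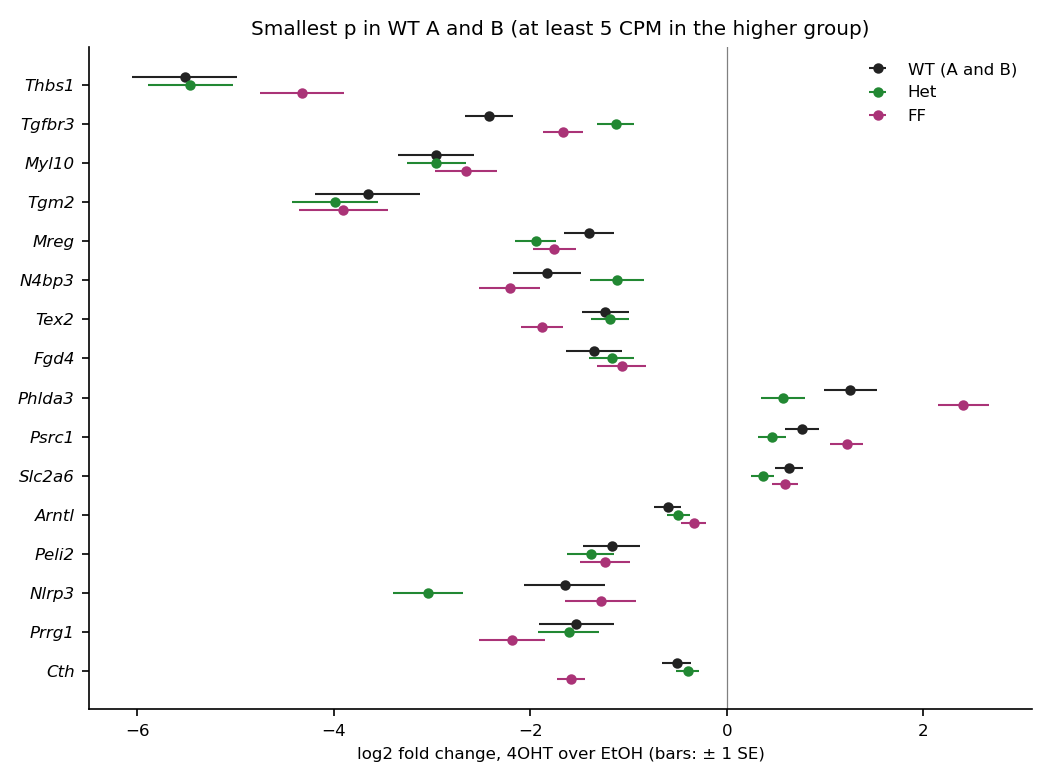
Log2 fold change of 4OHT over EtOH, with bars of 1 SE on each side, in WT lettered A and B, in Het and in FF, for the 16 genes with the smallest p in WT A and B among those at 5 CPM or more in the higher group. All 16 lie on the same side of 0 in the 3 lines, but the genes were chosen by the WT values. In edgeR only Thbs1, Tgm2, Tgfbr3 and Myl10 passed in WT. DESeq2 called 16 genes in WT, a different set, which includes Bpifc and Ccdc85a (not shown) and lacks Peli2 and Cth.

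Over all 215 genes with an unadjusted p under 0.05 in WT A and B, 170 (79.1%) had the same sign in Het and 172 (80.0%) in FF. Over all 13015 tested genes the shares were 65.9% and 55.6%.

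Of the 7 genes called in Het that were also at 10 CPM or more in WT_EtOH A and B, Gm models set aside, promoters of 4 were taken from RefSeq (GRCm38.p6) and are shown because these genes were lower in 4OHT in several lines. Each sequence spans 250 bases before to 50 after a start site. Capitals mark matches, on either strand, to any of 3 motifs: AGGTCA, the half-site of nuclear receptors; TGANTCA, bound by AP-1; and CAGACA, a SMAD box.
Myl10, chr5:136692896-136693195, plus strand: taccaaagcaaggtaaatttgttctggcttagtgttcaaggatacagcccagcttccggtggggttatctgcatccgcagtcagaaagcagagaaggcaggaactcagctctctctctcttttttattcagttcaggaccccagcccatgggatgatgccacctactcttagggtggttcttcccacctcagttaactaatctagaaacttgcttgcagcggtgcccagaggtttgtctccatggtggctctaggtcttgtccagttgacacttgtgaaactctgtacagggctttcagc
Mreg, chr1:72212258-72212557, minus strand: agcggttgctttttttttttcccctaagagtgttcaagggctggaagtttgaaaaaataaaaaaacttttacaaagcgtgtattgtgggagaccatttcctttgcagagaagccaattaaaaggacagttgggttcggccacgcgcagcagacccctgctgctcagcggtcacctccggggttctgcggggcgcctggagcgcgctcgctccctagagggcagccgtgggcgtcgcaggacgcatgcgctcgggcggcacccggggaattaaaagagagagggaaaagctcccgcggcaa
Tex2, chr11:106612881-106613180, minus strand: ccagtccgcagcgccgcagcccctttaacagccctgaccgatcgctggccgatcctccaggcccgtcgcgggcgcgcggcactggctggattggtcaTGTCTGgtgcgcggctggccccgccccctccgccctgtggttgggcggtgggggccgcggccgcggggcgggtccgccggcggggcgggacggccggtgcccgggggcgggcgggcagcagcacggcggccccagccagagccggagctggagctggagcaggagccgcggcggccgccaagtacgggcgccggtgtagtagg
Nlrp3, chr11:59541319-59541618, plus strand: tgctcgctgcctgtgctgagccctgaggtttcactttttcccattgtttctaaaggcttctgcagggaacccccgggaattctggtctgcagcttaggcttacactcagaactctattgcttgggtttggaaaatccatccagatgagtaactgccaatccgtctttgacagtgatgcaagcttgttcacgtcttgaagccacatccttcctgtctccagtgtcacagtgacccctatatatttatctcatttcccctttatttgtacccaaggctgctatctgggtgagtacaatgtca
The single match was to CAGACA, on the opposite strand in the Tex2 promoter, beginning 153 bases before the start. Of 32851 promoters in the RefSeq table, 21% held CAGACA, 16.3% AGGTCA and 7.81% TGANTCA. The promoters differed in composition, with a GC content of 49.3% for Myl10, 56.0% for Mreg, 78.7% for Tex2 and 47.3% for Nlrp3.

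No other tested member of the families of Tgm2 and Thbs1 passed. Among transglutaminases, 4 of 9 listed genes passed the count filter, and Tgm2 was the single call. F13a1, the A chain of coagulation factor XIII, was at 67.3 and 76.1 CPM in WT_EtOH A and B against 64.6 and 66.0 CPM in WT_4OHT A and B. Tgm1, the keratinocyte enzyme, was at 18 and 16.7 CPM against 20.9 and 21.4 CPM (log2 0.29 ± 0.16). Of 13 thrombospondins and thrombospondin receptors, 12 were tested and Thbs1 was the single call. The receptor Cd47 was at 518 and 467 CPM in ethanol and 521 and 430 CPM in 4OHT (log2 -0.04 ± 0.18), and the integrin chain Itgb1 was at 391 and 387 against 368 and 315 CPM (log2 -0.18 ± 0.15).

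The pathways that touch these genes showed no further call. None of 16 tested genes of the TGF-beta list passed (median log2 0.14, against 0.00 over all tested genes). That list leaves out Thbs1 and Tgfbr3, which were called. Tgfb1, the main TGF-beta ligand of blood cells, was at 287 and 312 CPM in WT_EtOH A and B against 312 and 346 CPM in WT_4OHT A and B, and its receptor Tgfbr2 was at 15.9 and 15.2 against 20.5 and 18.7 CPM. None of 10 tested genes of the retinoid list, which leaves out the called gene Tgm2, passed (median 0.21). The receptor gene Rara was at 18.9 and 16.9 against 21.8 and 25.4 CPM. None of 14 tested estrogen receptor genes passed (median 0.02). Esr1, the gene of estrogen receptor alpha, was at 6.0 and 5.28 CPM in ethanol and at 5.57 and 4.81 CPM in 4OHT.

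Sterol and fatty acid genes leaned to the lower side by small amounts, with no gene past the threshold and no test of the lists. Of 25 cholesterol synthesis genes, all tested, 12 (48.0%) had both 4OHT libraries below both ethanol libraries and 0 had them above, against 24.4% and 22.2% of all tested genes (median log2 -0.16). Idi1, an isomerase of the mevalonate pathway, was at 297 and 344 CPM in WT_EtOH A and B against 215 and 187 CPM in WT_4OHT A and B (log2 -0.67 ± 0.24). Of 14 fatty acid synthesis genes, 9 (64.3%) were lower without overlap (median -0.20), with the desaturase gene Scd1 at 41.8 and 52.9 against 25.0 and 32.5 CPM (log2 -0.71 ± 0.26). The mean of the cholesterol list was not low in the library labelled WT_EtOH C, which stood 0.03 log2 units above the mean of WT_EtOH A and B. WT_4OHT A and B stood at -0.27 and -0.14, while WT_EtOH A and B themselves stood at -0.09 and 0.09. The library labelled WT_4OHT C stood at 0.38, and at 0.16 for the fatty acid list, opposite to WT_4OHT A and B. Of 14 LXR and sterol efflux genes, 4 were higher and 3 lower without overlap (median 0.04).

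Lists of DNA damage, cell division and protein folding had medians in the same small range, again without a call in WT in the edgeR fit to 15 libraries, while DESeq2 called Phlda3 and Psrc1 (above). Over all tested genes, 22.2% were higher and 24.4% lower without overlap. Of 34 p53 targets, 17 were higher and 2 lower without overlap (median 0.24). Cdkn1a, the p53-induced inhibitor of cyclin-dependent kinases, was at 124 and 109 CPM in WT_EtOH A and B against 179 and 177 CPM in WT_4OHT A and B (log2 0.61 ± 0.35), while Mdm2, which degrades p53, was at 112 and 99.4 against 116 and 102 CPM. Of 37 G2/M and mitosis genes, 25 (67.6%) were lower and 1 higher without overlap (median -0.16), with Top2a at 988 and 1008 against 903 and 814 CPM. Of 30 DNA repair genes 13 (43.3%), of 38 S phase genes 16 (42.1%) and of 21 ER chaperone genes 14 (66.7%) were lower without overlap, with medians of -0.11, -0.02 and -0.10. Of 29 ATF4 and amino acid genes, 10 were lower and 4 higher (median -0.02). When scaled by library size alone, the medians of the S phase and ATF4 lists turned to 0.01, while no other list of DNA damage, division or folding changed sign.

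Lysosome, monocyte, NF-kB and interferon lists had more members higher than lower without overlap, against shares of 22.2% higher and 24.4% lower over all tested genes, and the lists were not tested. Of 22 lysosome genes, 17 (77.3%) were higher and 0 lower without overlap (median 0.16), with the protease gene Ctsd at 691 and 686 CPM in WT_EtOH A and B against 834 and 938 CPM in WT_4OHT A and B. Of 21 monocyte and macrophage genes, 14 (66.7%) were higher and 1 lower without overlap (median 0.47), and the lysozyme gene Lyz2 was at 224 and 218 against 356 and 378 CPM (log2 0.74 ± 0.38, edgeR adjusted p = 1). The library labelled WT_EtOH C held 327 CPM of Lyz2. Summed levels of the monocyte list were 3226 to 3304 CPM in WT_EtOH A and B against 3450.0 to 3585 CPM in WT_4OHT A and B. Of 21 NF-kB and cytokine genes 10 (47.6%) and of 27 interferon-stimulated genes 10 (37.0%) were higher without overlap, with medians of 0.28 and 0.18, while 0 and 4 (14.8%) were lower. Over all 6 libraries 0 lysosome, 0 monocyte, 3 NF-kB and cytokine and 3 interferon-stimulated genes were higher without overlap, and 1 interferon-stimulated gene was lower. These counts over 6 libraries are a description only, since the share over all tested genes is not given for them. In bulk RNA a larger share of cells of a type and more RNA per cell cannot be told apart.

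The other lists showed no call in edgeR. Of 19 granulocyte genes 8 (42.1%) were higher and 5 (26.3%) lower without overlap (median 0.12). Over all tested genes the shares were 22.2% and 24.4%. The median was 0.12 for 14 AhR and NRF2 genes and 0.00 for 25 progenitor line genes. Of lineage lists with few tested genes, 5 mast cell and basophil genes had a median of 0.03, 4 erythroid genes -0.08, 4 platelet genes 0.38, 4 lymphoid genes -0.02 (0.01 when scaled by library size) and 4 stromal and endothelial genes 0.53. The sums of the platelet list stayed at or below 6.26 CPM and those of the lymphoid list at or below 9.83 CPM in each WT library lettered A or B. The 4 sex-linked line marks had a median of -0.35.

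The C libraries did not take 1 side across these lists. The list means of the library labelled WT_EtOH C, relative to WT_EtOH A and B, were 0.25 for lysosome, 0.23 for p53 targets, -0.24 for DNA repair and -0.13 for G2/M, in the direction of WT_4OHT A and B. The library labelled WT_4OHT C stood at -0.90 for granulocyte genes, -0.39 for monocyte genes and -0.22 for p53 targets, where WT_4OHT A and B were above 0. Mpo, the myeloperoxidase gene of granulocyte precursors, was at 455 CPM in that library and between 2441 and 3790.4 CPM in the other 5 WT libraries.

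**Figure D4:**
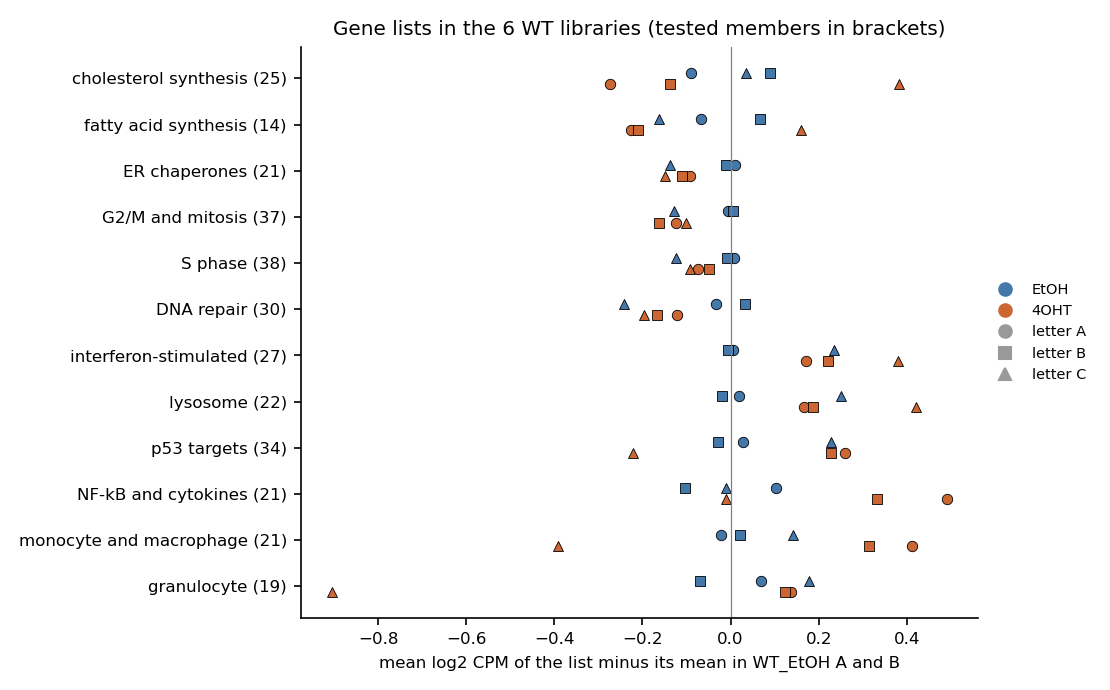
Mean log2 CPM of 12 gene lists in each WT library minus the mean of WT_EtOH A and B, with 1 point per library (colour for the treatment, shape for the letter) and the number of tested members in brackets. WT_4OHT A and B lie within 0.5 log2 units of 0 for each list shown. The library labelled WT_4OHT C is the lowest for the granulocyte (-0.90), monocyte (-0.39) and p53 (-0.22) lists. It is the highest for the cholesterol (0.38), fatty acid (0.16), lysosome (0.42) and interferon (0.38) lists.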

How the data were processed

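RNA was measured by RNA-seq in 18 libraries, of which 6 are WT. The authors deposited raw read counts, whole numbers for each gene symbol, made with HISAT2 2.0.5 and featureCounts 1.5.2 on mm10, per the submitters' processing notes, which also name CASAVA 1.4, FastQC 0.11.7 and Subread. Not given in the sources used here were the strand setting, the annotation and the treatment of multi-mapping reads, so counts of overlapping genes and near-identical copies are uncertain. Samples were grouped by their labels.

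Counts were tested with edgeR 4.0.16 in R 4.3.3 (TMM, filterByExpr with a minimum count of 10, robust quasi-likelihood F test, Benjamini-Hochberg adjustment over all tested genes, threshold 0.05). One fit used all 18 libraries, 1 mean per group. The comparison of letters A and B, the Het and FF responses and the interactions came from a fit to 15 libraries, which leaves out those labelled WT_EtOH C, WT_4OHT C and FF_EtOH C. Standard errors were derived from the F statistic. CPM are TMM values of the former fit. The procedure was tested on simulated data. Floors of 3 counts cover counting error only. Coordinates come from GENCODE M21, in which 22708 of 24062 symbols matched 1 gene.

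Genes were named by a rule: Ddx41, Tgm2 and Thbs1, genes past the threshold at 10 CPM or more without overlap, and up to 4 called or 2 abundant members per list. Others, which include the genes called in Het, were named after their values were seen. The members and the 27 gene lists were chosen with earlier results of these data known. Alternatives were other scalings, filters and tools (DESeq2 1.42.0, limma 3.58.1 voom), the compared groups alone, a replicate block and each library left out. Whether shared letters pair the libraries of a line is not known. Same-letter deviations in WT correlated at 0.39, -0.02 and 0.25 for A, B and C, with the C libraries that went against their labels included. For the WT letters A and B alone the correlation was 0.20. In Het they correlated at 0.48, 0.70 and 0.40, higher than in WT at each letter, so the Het response was also fitted with a replicate block.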

Additional observations from a re-analysis of the deposited data

Results flagged for a closer look

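The response to 4OHT differed between FF and WT at 72 genes by the test of the difference itself (edgeR interaction, WT letters A and B), and the 6 given here are the 3 largest differences in each direction that the naming rule takes. Ddx41, the deleted helicase gene, had an FF minus WT difference of -2.60 log2 units (edgeR adjusted p = 0.000546), with 75.5 and 88.5 CPM in WT_4OHT A and B and 14.6 to 17.7 CPM in FF_4OHT. Dhx16, a helicase gene of the spliceosome, had a difference of -1.75 (edgeR adjusted p = 0.000355), with 116 and 126 CPM in WT_4OHT A and B and 35.2 to 38.5 CPM in FF_4OHT. Ccdc107 had a difference of -1.75 (edgeR adjusted p = 0.0486).

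Of the higher differences, the small nucleolar RNA Snora70 had 2.97 (edgeR adjusted p = 0.0213), at 2.39 and 2.59 CPM in WT_4OHT A and B against 12.6 to 18.7 CPM in FF_4OHT. The non-coding RNA genes Dancr and Snhg1, which host small nucleolar RNAs, had 2.06 (edgeR adjusted p = 0.0226) and 1.77 (edgeR adjusted p = 0.0213). WT_4OHT A and B held 3.62 and 4.24 CPM of Dancr and 89.8 and 65.4 CPM of Snhg1. In WT none of the 6 passed. Over 18 alternatives the difference stayed past the threshold in 18 for Ddx41 and Dhx16, 8 for Ccdc107, 10 for Dancr, 12 for Snhg1 and 11 for Snora70.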

How the results depend on the processing

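Over all 6 WT libraries the count of called genes stayed at 0 under every alternative but DESeq2, which called 4. The signs of Tgm2, Tgfbr3 and Myl10 turned there: -0.98, -0.37 and -0.20 with limma voom, -2.05, -0.86 and -1.10 with a replicate block, and -3.16, -2.01 and -2.51 without the libraries labelled WT_4OHT C and FF_EtOH C, where Ddx41 was at -0.032. With 1 WT library left out at a time they ranged from -3.16 to 0.66, -2.01 to 0.96 and -2.51 to 1.99, and Ddx41 from -0.031 to 0.114. Thbs1, -0.71 in the comparison as reported, kept its sign, at -3.90 with the block and from -4.96 (without WT_4OHT C) to -0.15 (without WT_4OHT A or B). The other 4 turned without the library labelled WT_4OHT C, Tgm2 also without WT_EtOH C (-0.39) and Ddx41 also without WT_EtOH A (-0.00048).

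For the letters A and B, where 4 genes were called, DESeq2 called 16 and a fit to the compared groups alone 13, each with all 4; 3 (Phlda3, Psrc1 and Slc2a6) and 2 (Lyz2 and Phlda3) of these were higher. Leaving out 1 library gave 0 to 3. The replicate block gave 6, adding Mreg and N4bp3. Tgm2 missed the threshold with no count filter (adjusted p = 0.132) and without Het_4OHT A (0.117, an alternative chosen after seeing the data), and Myl10 with voom (0.0732), with log2 values of -3.65, -3.66 and -2.95. With 1 library left out, Tgfbr3 ranged from -2.54 to -2.27 and Myl10 from -3.10 to -2.84. With 1 library left out Ddx41 ranged from -0.092 (without WT_4OHT B) to 0.131.

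The Het minus WT count was 0 throughout, with the replicate block as well. The FF minus WT count, 72, was 505 in DESeq2, 551 with the compared groups alone, 596 without Het_4OHT A (added), 58 with the replicate block (30 of them among the 72) and 2 to 289 with 1 library left out. It was 3 without WT_EtOH A, 2 without WT_EtOH B, 9 without WT_4OHT A, 2 without WT_4OHT B, 4 without FF_EtOH A, 289 without FF_EtOH B and 11 without any one of the FF_4OHT libraries. The causes were not tested. Leaving out 1 of the 2 libraries of a WT arm assumes that the lone library varies like the other groups.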
